A study of Daphnia magna with 48 samples.

Results

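The joint effect of aniline, 4-chloroaniline and 3,5-dichloroaniline was measured in whole bodies of Daphnia magna, a freshwater water flea used in toxicity testing. It is the change that the 3 less chlorinated anilines have in common when each exposed group is set against the control group of its own experiment. The members were the 6006 Daphnia probes of the deposited table on 18 of its 48 arrays: 9 arrays of exposed animals and 9 of controls, with 3 of each per chemical. The series holds 8 chemicals in 16 groups of 3 biological replicates. Per the labels, newborn animals were exposed for 96 h to the EC10 of the chemical, the concentration that affects 10% of animals, and media of the aniline experiments, controls included, were renewed every 48 h. RNA came from 30 pooled animals per replicate at day 4, and labelling started from 100 ng. The controls of aniline, of 4-chloroaniline and of 3,5-dichloroaniline were 3 separate groups, which carried no exposure. The sources used here do not give the concentrations behind the EC10 values, so the 3 chemicals were compared at matched effect and not at matched dose. The labels do not say whether replicates came from separate cultures, so the p-values measure the spread between these pools, which may in part be technical.

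Anilines are aromatic amines, a benzene ring that bears an amino group, and each chlorine added to the ring makes the molecule more hydrophobic. Aniline carries 0 ring chlorines, 4-chloroaniline 1 and 3,5-dichloroaniline 2. Anilines are often classed as polar narcotics, chemicals that disturb membranes somewhat more strongly than hydrophobicity alone predicts, and water fleas are known to be more sensitive to many anilines than fish are. In animals they are metabolised by acetylation of the amino group and by hydroxylation. No table used here pairs the probes with genes, so features are named by their probe identifiers, no role can be given for them, and the whole-body label could not be checked against marker genes. In whole-body RNA, fewer cells of a type and less RNA per cell cannot be told apart.

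Each value is the log2 ratio of a sample to a universal reference, which pooled RNA of control and exposed animals. The direction, sample over reference, is likely but is not stated by any label. With the sign turned, every higher value below reads as lower and all counts of called probes stay as they are. This reading rests on variable probes, whose ratios to a pool of the samples should average about 1. For the 420 probes with an SD over arrays between 0.6 and 1, the log2 of the average ratio had a median of -0.07 in the deposited direction and 0.43 in the other. For the 90 probes with an SD over 1 the medians were 0.31 and 0.68, nearer to 0 as deposited but not at 0. The 1402 probes with an SD from 0.3 to 0.6 gave 0.01 and 0.08. The 4094 probes with a lower SD went the other way, with 0.0276 as deposited and -0.0061 turned. The sample was labelled with Cy5 on 5 of the 9 control arrays and on 4 of the 9 exposed arrays, and dye was a covariate in each model. The correlation over probes between arrays of one group had a median of 0.36 over 18 pairs and ranged from -0.27 to 0.74. It was lowest among the aniline controls, where the pairs gave -0.27, -0.08 and 0.24. The SD over probes ranged from 0.229 to 0.488 per array. The number of arrays limits the precision, and brightness and depth are not part of a ratio table.

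No probe passed the test for a joint effect. In the limma model with the chemical as block, exposure and dye, the share called at a Benjamini-Hochberg adjusted p under 0.05 was 0% (0 of 6006), and the smallest adjusted p was 0.0939. At an unadjusted p under 0.05 there were 149 probes, or 2.48%, of which 78 were higher and 71 lower in exposed animals. Evenly spread p-values would give 300.3. The joint estimates were small: their median size was 0.0568 on the log2 scale, 27 exceeded 0.5 and 0 exceeded 1, which is a 2-fold difference.

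The intervals bound how large a common change could have been. The 95% confidence interval of the joint effect had a median half-width of 0.184. It lay entirely within a difference of 1 in either direction for 5970 probes (99.4%) and within 0.5 for 5436 (90.5%). Each interval covers its own probe and is not adjusted over the 6006. For a single chemical the median half-width was 0.323, and the interval lay within 1 for 92.2% of probes with aniline, 91.8% with 4-chloroaniline and 93.7% with 3,5-dichloroaniline.

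**Figure D1:**
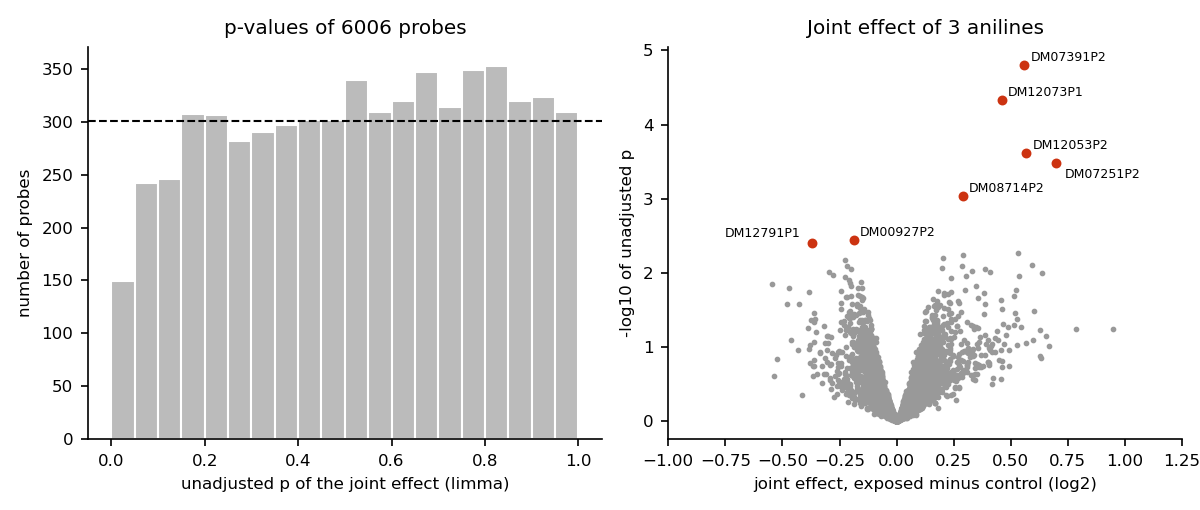
Left, the number of probes (y axis) by unadjusted p of the joint effect (x axis, 20 bins), with a dashed line at the 300.3 probes per bin that evenly spread p-values would give. Right, each of 6006 probes by its joint effect on the log2 scale (x axis) and the −log10 of its unadjusted p (y axis). The first bin holds 149 probes, and the 5 higher and 2 lower probes of smallest p are named, none of which passed the adjusted threshold.

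The order by p was led by DM07391P2, with a joint difference of 0.56 ± 0.09 (SE), a 95% interval from 0.36 to 0.76 and an adjusted p of 0.0939 in limma. With aniline, its log2 ratios were -0.74, -0.52 and -0.92 in the controls and -0.31, 0.09 and -0.42 in the exposed pools. With 4-chloroaniline they were -0.97, -0.997 and -0.93 in the controls and -0.21, -0.64 and 0.11 in the exposed pools. All 3 exposed values lay above all 3 control values in both experiments. With 3,5-dichloroaniline the controls read -0.98, -0.80 and -0.36 and the exposed pools -0.24, -0.11 and -0.24, again without overlap. The differences were 0.44 for aniline, 0.64 for 4-chloroaniline and 0.60 for 3,5-dichloroaniline. Here and for the probes below they are adjusted for dye, so they can depart from the gaps between the values printed. Like effects were favoured by the choice of the probe, since differences among chemicals count as error in the joint model. All 9 exposed pools read above the mean of their own controls. Leaving out the third exposed pool of aniline gave 0.60 and an adjusted p of 0.0195 in limma, the only one of 33 alternatives at the threshold of 0.05 in which the probe passed. It also passed where the threshold itself was moved to 0.10.

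DM12073P1 had the next smallest p, with a joint difference of 0.46 ± 0.08 (SE) and an adjusted p of 0.141 in limma. Its control values were -0.62, -0.41 and -0.60 against exposed values of -0.23, -0.21 and -0.21 with aniline. They were -0.51, -0.45 and -0.41 against 0.37, 0.29 and -0.06 with 4-chloroaniline. With 3,5-dichloroaniline they were 0.27, -0.32 and 0.05 against 0.41, 0.32 and 0.46. The groups did not overlap in any of the 3 experiments, although 2 of the 3 controls of 3,5-dichloroaniline read above every exposed pool of aniline. The differences were 0.33, 0.67 and 0.39.

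DM12053P2 followed with 0.57 ± 0.12 (SE) and an adjusted p of 0.486 in limma. The controls read -1.30, -0.78 and -0.77 and the exposed pools -0.66, -0.34 and -0.53 with aniline. With 4-chloroaniline the controls read -0.49, -0.61 and -0.56 and the exposed pools -0.27, -0.48 and 0.30, so the closest values were nearly equal. The widest gap was with 3,5-dichloroaniline, where controls of -0.65, -1.02 and -0.46 stood against 0.07, 0.34 and 0.10. The differences were 0.40, 0.36 and 0.92.

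**Figure D2:**
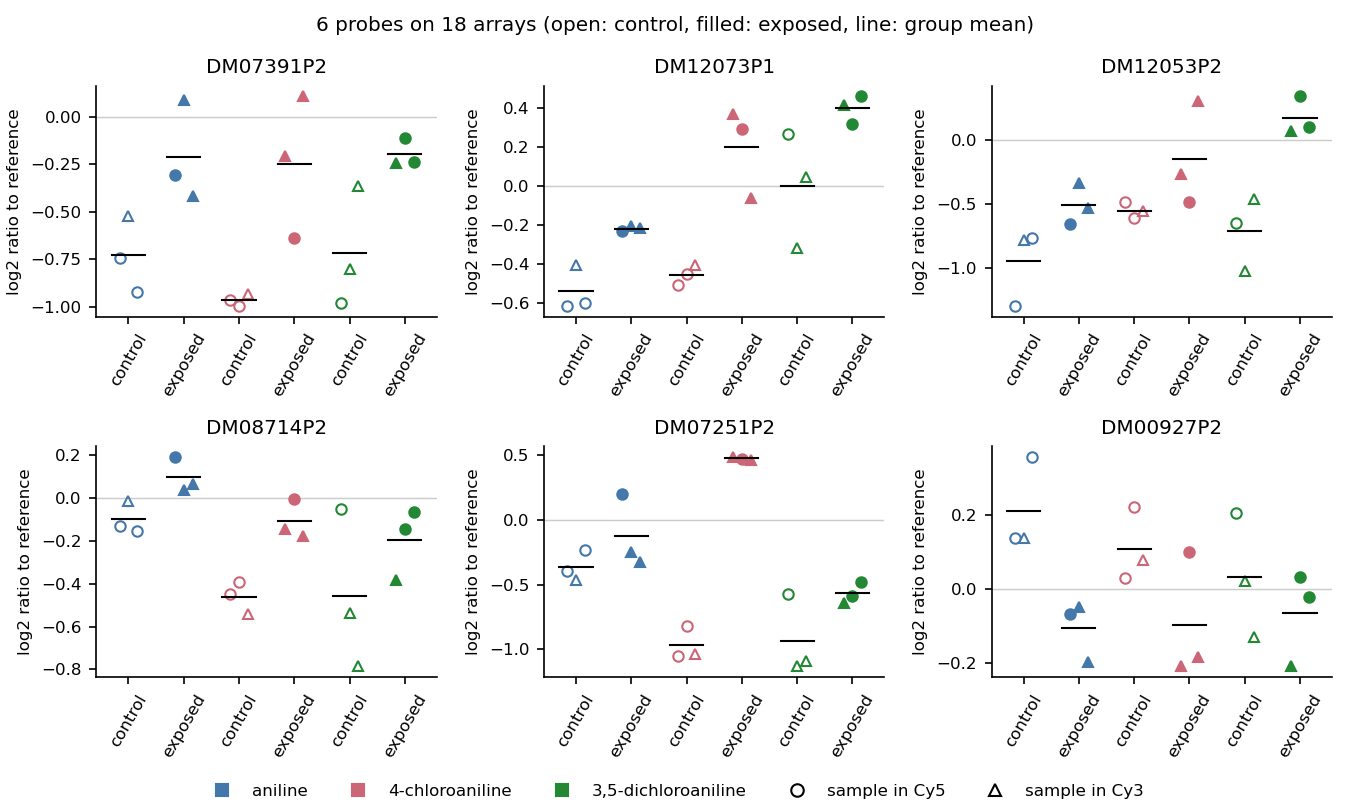
Log2 ratio to the reference (y axis of each panel) of 6 probes on 18 arrays, by chemical (colour), exposure (x axis; open for control, filled for exposed) and dye of the sample (circle for Cy5, triangle for Cy3), with a line at each group mean of 3 pools. In DM07391P2, DM12073P1 and DM12053P2 the exposed pools lie above their own controls with each chemical. In DM07251P2 the effect adjusted for dye is 1.52 with 4-chloroaniline, against 0.32 with aniline and 0.29 with the remaining chemical. These adjusted effects depart from the gaps between the group means drawn.

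Those were the only 3 of 6006 probes (0.05%) whose exposed and control values did not overlap in the same direction with all 3 anilines. For at least 2 of the 3 there were 42 probes (0.699%), 27 higher and 15 lower. The groups of one experiment did not overlap for 530 probes with aniline (8.82%), 542 with 4-chloroaniline (9.02%) and 552 with 3,5-dichloroaniline (9.19%). The effects had the same sign with all 3 chemicals for 1220 probes (20.3%), of which 620 were higher and 600 lower. Groups of 3 arrays separate, and 3 signs match, for a share of probes even without any effect of exposure. The counts were not set against that share, so they describe the data and are no evidence of a response. As a description over probes, which are not independent replicates, the effects correlated at r = 0.016 between aniline and 4-chloroaniline. The value was -0.114 between aniline and 3,5-dichloroaniline and -0.092 between 4-chloroaniline and 3,5-dichloroaniline, over 6006 probes each. From group means without the dye term, the values were 0.053, -0.165 and -0.111 in the same order. These experiments share no control arrays, and all arrays share the reference and the dye covariate.

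**Figure D3:**
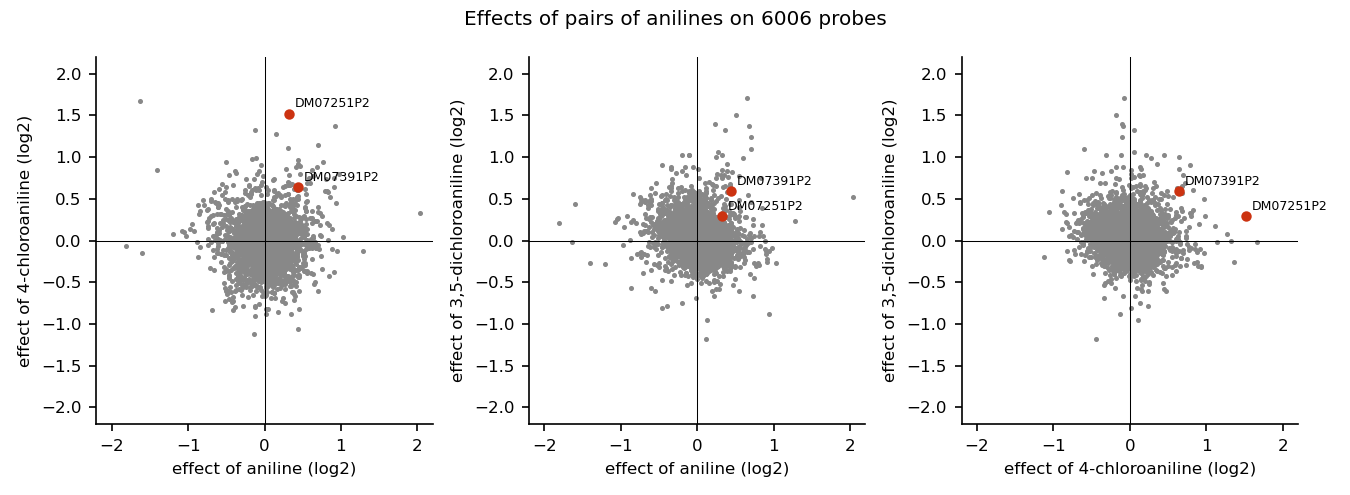
Effect of one aniline against another for 6006 probes, exposed minus control on the log2 scale on both axes, one panel per pair of chemicals. The points form round clouds, with r of 0.016, -0.114 and -0.092 from left to right. DM07391P2 is high in all panels and DM07251P2 stands out on the axis of 4-chloroaniline.

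The other probes of smallest p did not pass. The 10 higher probes had joint differences from 0.20 to 0.70 and adjusted p-values from 0.0939 to 0.999 in limma. Of these, 9 had the same sign with all 3 chemicals. The exception was DM07195P1, which read 0.70 with aniline, 1.14 with 4-chloroaniline and -0.02 with 3,5-dichloroaniline. DM08714P2 had 0.29 ± 0.07 (SE), with 0.26, 0.42 and 0.19 for the 3 chemicals, and all 9 of its exposed pools read above the mean of their own controls.

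The 10 lower probes had joint differences from -0.37 to -0.15, all with an adjusted p of 0.999 in limma, and 9 of them had the same sign with all 3 chemicals. DM00927P2 led them at -0.19 ± 0.06 (SE). Its controls read 0.14, 0.14 and 0.36 and its exposed pools -0.07, -0.05 and -0.20 with aniline, while the groups overlapped with the other chemicals. None of its 9 exposed pools lay above the mean of their own controls. DM12791P1 read -0.37 ± 0.11 (SE), made up of -0.67 with aniline, -0.20 with 4-chloroaniline and -0.26 with 3,5-dichloroaniline. The exception in sign was DM06883P1, at -0.52, -0.57 and 0.17.

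**Figure D4:**
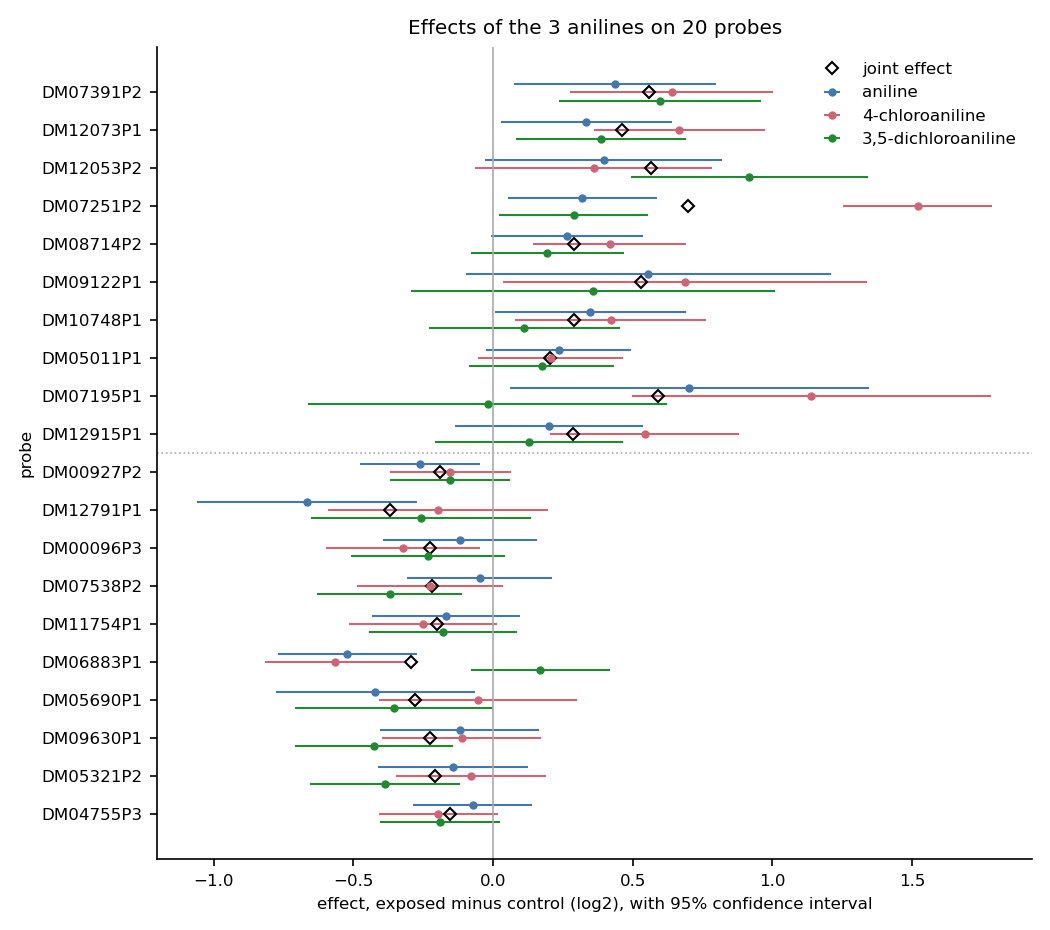
Effects of aniline, 4-chloroaniline and 3,5-dichloroaniline on the 20 probes (y axis) of smallest p for the joint effect, 10 per direction, as exposed minus control on the log2 scale (x axis). Coloured points are effects of single chemicals with 95% confidence intervals and open diamonds the joint effect. The 3 effects of DM07391P2 lie between 0.44 and 0.64, while for DM07251P2 that of 4-chloroaniline (1.52) lies apart from the others.

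The largest joint estimate belonged to a probe outside those 20, chosen here after its value was seen. DM07533P1 read 0.95 ± 0.47 (SE) with an adjusted p of 0.999 in limma. Its effects were 2.04, 0.33 and 0.52, and the first aniline control stood at -3.24.

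The 3 chemicals were then compared with each other by a model of 6 group means and dye. A difference among the 3 effects was called for 1 of 6006 probes (0.0167%), DM07251P2, with an adjusted p of 0.0288 in limma. This probe rose with 4-chloroaniline by 1.52 ± 0.12 (SE, adjusted p = 3.23e-05 in limma), the only probe called with that chemical (0.0167%). Its controls read -1.05, -0.82 and -1.03 and its exposed pools 0.49, 0.48 and 0.46. Both groups were tight and far apart. The values were -0.40, -0.46 and -0.23 against 0.20, -0.24 and -0.32 with aniline, where the groups overlapped. With 3,5-dichloroaniline they were -0.58, -1.13 and -1.09 against -0.64, -0.59 and -0.48, also with overlap. The effects there were 0.32 ± 0.12 (SE, adjusted p = 0.992 in limma) and 0.29 ± 0.12 (SE, adjusted p = 1.000 in limma). Its joint difference of 0.70 ± 0.16 (SE) had an adjusted p of 0.501 in limma, in a model in which differences among chemicals count as error.

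All 3 pairs of chemicals were tested. For DM07251P2 the effect of 4-chloroaniline, which bears one ring chlorine more, exceeded that of aniline by 1.20 ± 0.17 (SE), with an adjusted p of 0.0345 in limma within that pair and 0.0609 over all 3 pairs together. The effect of 3,5-dichloroaniline was lower than that of 4-chloroaniline by -1.23 ± 0.18 (SE), with adjusted p-values of 0.0406 and 0.0609 in limma. Each of these pairs called this probe alone (0.0167%), and adjusted over the 3 pairs together none was called. Aniline and 3,5-dichloroaniline differed there by -0.03, with a 95% interval from -0.42 to 0.35. The difference among the 3 was called for this probe in 9 of 27 alternatives, 6 of them among the 18 that leave out a replicate, with adjusted p-values from 0.00966 to 0.790 in limma. It was not called with no dye covariate, arrays scaled to equal spread, quantile normalization, more variable probes only or all 48 arrays. Its effect with 4-chloroaniline against the control was called in 27 of 28 alternatives.

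Between aniline and 3,5-dichloroaniline 0 of 6006 probes (0%) were called by limma, the smallest adjusted p being 0.653, and 273 (4.55%) had an unadjusted p under 0.05. At that level there were 336 (5.59%) between 4-chloroaniline and aniline and 320 (5.33%) between 3,5-dichloroaniline and 4-chloroaniline. Against their own controls, aniline had 0 called probes (0%) and 246 (4.1%) below an unadjusted p of 0.05, and 3,5-dichloroaniline had 0 (0%) and 170 (2.83%). With 4-chloroaniline there were 350 (5.83%) below it. Evenly spread p-values would give 300.3 in each case. Without the first aniline control, limma called 8 probes with aniline and 26 between 4-chloroaniline and aniline. The intervals of the pairs were wide: the median half-width was 0.447 between 4-chloroaniline and aniline and 0.465 for both others. They lay within a difference of 1 for 81.2% of probes between 4-chloroaniline and aniline, 80.3% between 3,5-dichloroaniline and aniline and 80.0% between 3,5-dichloroaniline and 4-chloroaniline. For the remaining probes a difference of 2-fold between chemicals was inside the interval.

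The probe of next smallest p for a difference among the 3 was DM01852P3, which did not pass. With aniline its controls read 0.48, 0.62 and 0.03 and its exposed pools -0.47, -0.43 and -0.34, a difference of -0.87 ± 0.18 (SE, adjusted p = 0.992 in limma). With the other 2 chemicals the differences were 0.43 and 0.23. DM09918P1 read 0.28 with aniline, 0.22 with 4-chloroaniline and -0.42 with 3,5-dichloroaniline, where controls of 0.22, 0.40 and 0.14 stood above exposed values of -0.22, -0.06 and -0.17. DM08571P2 read 0.99 with 4-chloroaniline against -0.12 with aniline and 0.29 with 3,5-dichloroaniline (adjusted p = 0.432 for 4-chloroaniline in limma).

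The experiments differed from each other by more than exposed animals differed from controls. Of the sum of squares over the 6006 probes and 18 arrays, 33.2% lay between the 3 experiments, 11.2% with dye and 3.34% with the common effect of exposure. Another 7.80% lay in differences of the effect among the chemicals and 44.5% in the residual. These shares rested on 2, 1, 1, 2 and 11 degrees of freedom, in that order. Per degree of freedom, neither the common effect nor the differences among chemicals exceeded the residual, so these 2 shares are no evidence of a response. In the joint model, which holds no term for differences of the effect among chemicals, limma called 1124 probes (18.7%) between experiments and 239 (3.98%) for dye. The residual SD was 0.269 in the aniline arrays, 0.275 in the 4-chloroaniline arrays and 0.231 in the 3,5-dichloroaniline arrays. What sets the experiments apart was not tested.

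2,3,4-trichloroaniline, the aniline with 3 ring chlorines, was set against the joint effect in a fit of 24 arrays. The difference was called for 57 probes (0.949%), 21 with a higher and 36 with a lower joint effect, and after quantile normalization for 59, 14 higher and 45 lower. The count depended on single pools: it was 17, 34 and 26 without the second control, the second exposed and the third exposed pool of 2,3,4-trichloroaniline, 86 without its control 3 (58 higher) and 117 without the third control of 4-chloroaniline. DM07423P3 had the smallest p: its joint difference was 0.03 and its difference with 2,3,4-trichloroaniline -1.62. The joint effect was thus higher by 1.63 ± 0.19 (SE, adjusted p = 0.000293 in limma). That joint difference joined effects of opposite sign: -0.36 with aniline, 0.005 with 4-chloroaniline and 0.41 with 3,5-dichloroaniline, none of them called. DM07391P2 had a joint effect lower than that of 2,3,4-trichloroaniline, by -0.79 ± 0.18 (SE, adjusted p = 0.0354 in limma). For DM07251P2 the joint effect was lower by -0.83 ± 0.17 (SE, adjusted p = 0.0170 in limma). That does not hold for each chemical: its effect was 1.52 with 4-chloroaniline, against 1.53 with 2,3,4-trichloroaniline in the fit of 24 arrays. With aniline it was 0.32 and with 3,5-dichloroaniline 0.29. Single chemicals were not tested against 2,3,4-trichloroaniline.

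The joint effect was last read on probes that answered the other 5 chemicals, which were 2,3,4-trichloroaniline, 3,4-dichlorophenol, isobutanol, 3-chloropropanol and cadmium. Their 30 arrays share no array or control group with the 3 anilines, and renewal of media is recorded for 2,3,4-trichloroaniline alone among them. Probes that rose with at least 3 of the 5 numbered 90 (1.5%), and 69 of them (76.7%) had a positive joint estimate, against 50.3% of all 6006 probes. The sizes were unlike: the median was 0.08 for the joint effect and 0.73 for the mean effect of the other chemicals. The lean was not shared by all 3 anilines, with medians of -0.01 for aniline, 0.10 for 4-chloroaniline and 0.09 for 3,5-dichloroaniline. Probes that fell with at least 3 numbered 82 (1.37%), and 31 of them (37.8%) had a negative joint estimate, with medians of 0.02 and -0.63. By chemical these medians were 0.04 for aniline, -0.03 for 4-chloroaniline and 0.04 for 3,5-dichloroaniline. For all probes the median joint estimate was 0.0006.

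Of the probes called with 2,3,4-trichloroaniline in that fit, 208 rose (3.46%) and 138 fell (2.3%). The joint estimate had the same sign for 102 of the former (49.0%) and 72 of the latter (52.2%). Among probes that rose, the share was 69.4% of 108 with 3,4-dichlorophenol (1.8%), 65.5% of 417 with 3-chloropropanol (6.94%), 64.3% of 115 with cadmium (1.91%) and 55.1% of 499 with isobutanol (8.31%). Among probes that fell, it was 37.2% of 137 with 3,4-dichlorophenol (2.28%), 52.9% of 325 with 3-chloropropanol (5.41%), 45.7% of 92 with cadmium (1.53%) and 43.4% of 530 with isobutanol (8.82%). These shares are a description of the lists and carry no test.

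Single probes ran both ways. DM07391P2 rose with 2,3,4-trichloroaniline (1.24), 3,4-dichlorophenol (0.93), isobutanol (2.00) and cadmium (1.63), each called by limma, and read 0.58 with 3-chloropropanol (adjusted p = 0.115 in limma). DM08714P2 rose with isobutanol (1.31), 3-chloropropanol (0.66), 3,4-dichlorophenol (0.59) and cadmium (1.20). DM12053P2 rose with isobutanol by 2.09 and fell by 1.97 with 3-chloropropanol. DM06883P1, at -0.29 for the joint effect, rose with isobutanol (2.34), 3-chloropropanol (1.64) and 2,3,4-trichloroaniline (1.11).

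DM07391P2, DM07251P2 and the next probes were named in an earlier account of these data, for the anilines or as moved by most chemicals. DM08009P2 and DM00126P2 were also named for their contrast with 2,3,4-trichloroaniline. Likeness or unlikeness of all these probes to the other chemicals is thus a description of that choice. DM01862P3 had effects of -6.72 for isobutanol, -6.11 for 3-chloropropanol, -4.28 for 3,4-dichlorophenol and -3.80 for cadmium, each called by limma. Its effects were 0.12 with aniline, 0.09 with 4-chloroaniline and -0.27 with 3,5-dichloroaniline. DM08009P2 had -5.90 for isobutanol, -5.87 for 3-chloropropanol and -3.94 for 3,4-dichlorophenol, each called, against 0.34, 0.22 and -0.19. It also read -3.09 with cadmium (adjusted p = 0.0597 in limma) and -2.59 with 2,3,4-trichloroaniline (adjusted p = 0.0865 in limma). On the 24 arrays its 2,3,4-trichloroaniline effect was -2.56 (adjusted p = 0.000161 in limma). DM00126P2 had -3.32 for isobutanol, -3.76 for 3-chloropropanol, -3.74 for 2,3,4-trichloroaniline and -2.60 for cadmium, each called, against 0.29, 0.45 and -0.58. With 3,4-dichlorophenol it read -1.94 (adjusted p = 0.156 in limma). Its joint effect exceeded the effect of 2,3,4-trichloroaniline by 3.72 ± 0.48 (SE, adjusted p = 0.000644 in limma).

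**Figure D5:**
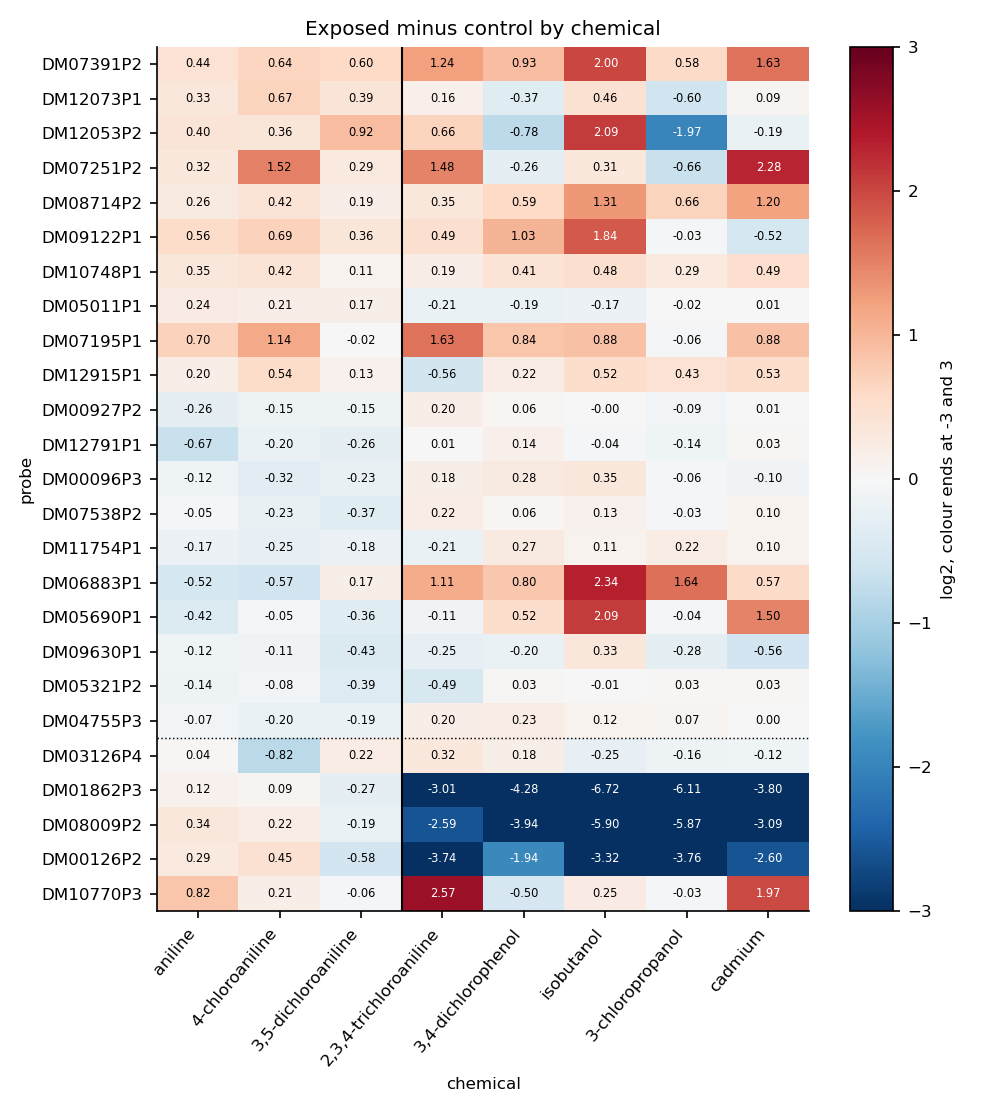
Effect of each of the 8 chemicals (x axis) on the 20 probes of smallest p for the joint effect and, under the dotted line, 5 probes named in an earlier account of these data (y axis). Cells give exposed minus control on the log2 scale, and the colour scale ends at -3 and 3. The 3 anilines to the left of the vertical line have cells between -0.82 and 1.52, while the other chemicals reach -6.72 for DM01862P3 and 2.57 for DM10770P3.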

How the data were processed

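The deposited table holds, per the file headers and labels, 1 column per array. The authors normalized the values, which were read as log2 ratios from their range and spread, and the sources used here do not name the background correction, the normalization method, a probe filter or the scanner. Probe numbers ran to 15415, so the 6006 probes may be part of the array. The 27 control rows were left out, and 0 values were missing. Arrays of opposite dye within a group correlated positively in most pairs (median r 0.44 over 32 pairs of the 48 arrays; 0.345 over the 12 pairs of the 18 arrays, of which 2 lay below 0, the lowest at -0.27). Among the control rows, the sign followed the dye on 48 of 48 arrays in some, such as DCP_22_4, and on as few as 29 in (+)E1A_r60_1. On these grounds, swapped arrays were taken as already turned. Among pairs of the 18 arrays with the same dye, 0 of 72 had r under -0.3, while 6 pairs of different chemical and opposite dye did, the lowest at -0.46.

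Tests were two-sided in limma 3.58.1 (R 4.3.3), adjusted by Benjamini-Hochberg over 6006 probes, and called at an adjusted p under 0.05. The joint effect came from chemical as block, exposure and dye over 18 arrays (13 residual degrees of freedom), effects of single chemicals and pairs from 6 group means and dye (11), and the contrast with 2,3,4-trichloroaniline from 24 arrays (15). The other 5 chemicals were fitted on their own 30 arrays. Figures used matplotlib 3.10.9, and the scripts were tested on simulated data.

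Probes named are the 10 of smallest p in each direction for the joint effect, 5 for the difference among the 3, 3 for each chemical and pair, 5 for the contrast with 2,3,4-trichloroaniline, and 7 of an earlier account. The members and lists were chosen with earlier results of these data known. Gene lists planned for named genes could not be applied. Alternatives changed the dye term, scaling, weights, probes, arrays, replicate block and threshold, and left out replicates and chemicals. Replicates with the same number were compared for pairing: 2 of 9 such pairs had a correlation of deviations over 0.1 (range -0.505 to 0.383), so the numbers were not treated as pairs.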

Additional observations from a re-analysis of the deposited data

Results flagged for a closer look

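DM07251P2 was the 1 result that met a criterion for a closer look: its effects differed among the 3 anilines by a test of that difference, with an adjusted p of 0.0288 in limma. That call was lost in most alternatives: it was made in 9 of 27, and in 6 of the 18 that leave out a replicate, and the adjusted p ranged from 0.00966 to 0.790. The effects were 0.32 with aniline, 1.52 with 4-chloroaniline and 0.29 with 3,5-dichloroaniline (n = 3 pools per group). Control means were -0.36 in the aniline experiment, -0.97 in the 4-chloroaniline experiment and -0.93 in the 3,5-dichloroaniline experiment, against a median of -0.71 over the controls of the other chemicals. Exposed means were -0.12, 0.48 and -0.57. The effect was 1.48 with 2,3,4-trichloroaniline and 2.28 with cadmium. After chemical and dye were fitted, the 9 exposed and the 9 control arrays were also searched in 28 probes for an array far from the rest, and 0 of 56 sets of 9 values held one.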

How the results depend on the processing

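The count of 0 for the joint effect became 1 with all 48 arrays (smallest adjusted p = 0.00185 in limma, DM07251P2), 1 with the mean of the 3 effects from 6 group means (DM07251P2, 0.71, adjusted p = 0.000433), 1 at an adjusted p under 0.10 (DM07391P2) and 0 to 1 without single replicates. DM07391P2 kept its sign in 33 of 33 alternatives (0.45 to 0.62). With aniline the count of 0 became 10 with array weights and 0 to 8 without single replicates (8 without aniline control 1). With 4-chloroaniline the count of 1 became 2 with all 48 arrays, 2 with array weights, 0 from its own arrays alone (DM07251P2 1.46, adjusted p = 0.134) and 1 to 2 without single replicates. With 3,5-dichloroaniline it was 0 in each alternative run. The difference among the 3 (1 probe) gave 0 with no dye covariate, equal spread, quantile normalization, more variable probes, 48 arrays or the replicate block, 3 with array weights and 0 to 2 without single replicates. The pair 4-chloroaniline and aniline (1 probe) gave 0 in those same 6 alternatives, with weights per chemical and from its own arrays, 5 with array weights, and 0 to 26 without single replicates (26 without aniline control 1). The pair 3,5-dichloroaniline and 4-chloroaniline (1 probe) gave 0 in those 6 and from its own arrays, and 0 to 1 without single replicates. The pair 3,5-dichloroaniline and aniline (0 probes) gave 27 with array weights and 0 without single replicates.

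The difference from 2,3,4-trichloroaniline (57 probes) became 106 with 48 arrays, 141 at 0.10, 666 with array weights, 228 with weights per chemical and 17 to 117 without single replicates: 17, 34 and 26 without 2,3,4-trichloroaniline control 2, exposed 2 and exposed 3, 86 without its control 3 (58 higher) and 117 without 4-chloroaniline control 3. The replicate block, which no label supports, gave 0 for the joint effect (smallest adjusted p = 0.330 in limma) and 7 for the difference from 2,3,4-trichloroaniline. Joint estimates near 0 that never passed changed sign. DM00126P2 (0.04) gave -0.0401 with quantile normalization, -0.0260 with weights per chemical, -0.0643 leaving out aniline, -0.15 leaving out 4-chloroaniline, -0.15 in Cy5 alone, and -0.0566 to 0.14 without single replicates. DM01862P3 (-0.03) gave 0.0036 with 48 arrays, 0.0017 leaving out 3,5-dichloroaniline, 0.19 in Cy5 alone and -0.19 to 0.0866 without single replicates. DM03126P4 (-0.18) gave 0.13 leaving out 4-chloroaniline and 0.0039 in Cy3 alone, and DM08009P2 (0.11) gave -0.31 in Cy3 alone. The causes were not tested.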
